A study of Homo sapiens with 6 samples.

Results

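Levels of 10 growth-linked long noncoding RNAs were compared in a leukaemia cell line treated with a cell cycle inhibitor. The 10 genes are the small nucleolar RNA (snoRNA) hosts GAS5, SNHG1, SNHG3, SNHG5, SNHG7, SNHG8 and SNHG12 and the nuclear RNAs MALAT1, NEAT1 and TUG1. Their probe sets were taken by annotation alone: a probe set stood for a gene where the array's annotation gave that gene as its 1 symbol. By this rule 3 of the 10 genes were measured, MALAT1 on 12 probe sets, TUG1 on 6 and GAS5 on 1, among 19775 genes measured in all. The other 7 genes, and GAS5 as well, were listed on 22 further probe sets only together with other symbols, and these are given by probe set ID and are not counted as measurements of the genes.

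The arrays compared KOPTK1 cells given 1 µM PD0332991 for 48 h (n = 3) with KOPTK1 cells given vehicle for 48 h (n = 3). KOPTK1 is an established human line of T-cell acute lymphoblastic leukaemia, grown in RPMI-1640 with fetal calf serum, and all results therefore come from 1 line. PD0332991, or palbociclib, inhibits the cyclin D-dependent kinases CDK4 and CDK6 and holds cells before S phase. Biotin-labelled total RNA of each culture was hybridised to a one-colour Affymetrix array of 54675 probe sets, and the submitters call the cultures biological triplicates.

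The snoRNA hosts are transcripts whose introns carry snoRNAs, the guides for chemical modification of ribosomal RNA. Their spliced exons usually encode no conserved protein, many begin with a terminal oligopyrimidine (TOP) tract like the messenger RNAs of ribosomal proteins, and several are destroyed by nonsense-mediated decay when ribosomes engage them. GAS5 takes its name from growth arrest, in which it was found to accumulate. MALAT1 is an abundant RNA of nuclear speckles, where splicing factors gather, NEAT1 is the scaffold of paraspeckles, and TUG1 is a long RNA of nucleus and cytoplasm.

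The deposited values are linear intensities without detection calls, and the arrays' medians lay between 49.1 and 54.3, so that each value stands relative to the rest of its array. A difference in RNA content per cell is not visible on this scale, and in a bulk culture fewer cells of a kind and less RNA per cell cannot be told apart. Of 12 T cell markers, 10 lay above 500 on all 6 arrays, and 9 were higher and none lower with PD0332991, where 15.6% of all genes were called higher and 13.6% lower (limma, adjusted p under 0.05). The mean of the 12 on the log2 scale was 10.83 to 10.91 on PD0332991 arrays and 10.41 to 10.52 on vehicle arrays, and its part in the results below was not tested. Of 8 fibroblast and epithelial markers 8 stayed below 100 on all 6 arrays, as did 6 of 7 myeloid and 4 of 6 B cell markers, and the B cell gene CD79A averaged 543 ± 85.7 with PD0332991 and 275 ± 27.7 with vehicle (SD, n = 3 each). The ratio of 3′ to 5′ control probe sets, a sign of RNA quality, was 2.41 to 2.61 for beta-actin on PD0332991 arrays and 2.31 to 2.47 on vehicle arrays. For GAPDH the ratio was 0.957 to 0.973 on PD0332991 arrays and 0.935 to 0.969 on vehicle arrays. Both ratios overlapped between the groups.

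MALAT1 was higher with PD0332991 on most of its probe sets, and none of them was called lower. Groups were compared with limma on log2(intensity + 16) over all 54613 probe sets that are not controls, with a call at a Benjamini-Hochberg adjusted p under 0.05. Of the 12 MALAT1 probe sets, 8 were called higher and 4 were not called, and the fold changes ran from 0.09 to 1.33 on the log2 scale with a median of 0.39. On 11 of the 12, all 3 PD0332991 arrays lay above all 3 vehicle arrays. Some of these were not called, and the share of all probe sets apart in this way was not counted. For comparison, 10.7% of all probe sets were called higher, 10.2% lower and 21.0% in either direction, and the median of all probe sets was 0.01. The share called higher changed with brightness: 1.5% below a mean of 16, 24.9% from 256 to 512 and 12.3% from 4096 to 8192. The probe sets of MALAT1 measure stretches of 1 RNA and are not independent of each other.

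**Figure D1:**
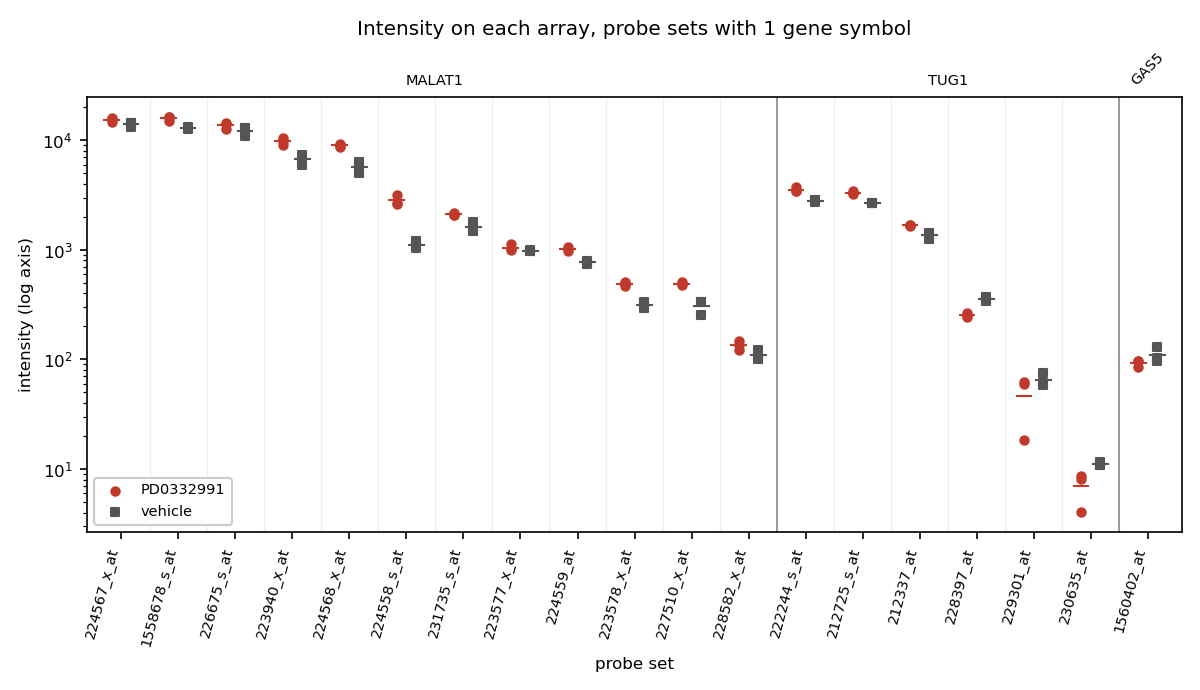
Intensity (log axis) on each of the 6 arrays for the 19 probe sets annotated to MALAT1, TUG1 or GAS5 alone, ordered by brightness within a gene, with PD0332991 arrays as circles, vehicle arrays as squares and group means as short lines. The 2 groups are apart on 11 of 12 MALAT1 probe sets, and the TUG1 probe set 228397_at runs opposite to the 3 brighter ones. The share of all probe sets with the groups apart was not counted.

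The largest MALAT1 difference was on probe set 224558_s_at. It read 3187, 2611 and 2677 on the PD0332991 arrays, against 1041, 1079 and 1206 on the vehicle arrays. The lowest PD0332991 array thus lay far above the highest vehicle array. The fitted fold change was 2.52, or 1.33 on the log2 scale (SE 0.11, limma adjusted p = 4.8e-04). Next came 227510_x_at, with 472, 509 and 487 on PD0332991 arrays, against 252, 331 and 331 on vehicle arrays, or 0.67 on the log2 scale (SE 0.12, limma adjusted p = 0.010). Probe set 224568_x_at read 9009, 8672 and 9196 with PD0332991, against 5062, 5821 and 6307 with vehicle, or 0.65 (SE 0.10, limma adjusted p = 0.0051). Neither of these overlapped between groups.

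The other MALAT1 probe sets that passed had smaller differences. Probe set 223578_x_at rose by 0.60 and 223940_x_at by 0.55 on the log2 scale. The probe set 224559_at, whose ID carries no suffix for shared sequence, read 1059, 980 and 1022 with PD0332991, against 767, 784 and 748 with vehicle, or 0.41 (SE 0.07, limma adjusted p = 0.0069). It is the 1 of the 12 with neither an _x_at nor an _s_at ending, which mark probes that can match several transcripts. Probe sets 231735_s_at, at 0.38, and 1558678_s_at, at 0.30, also passed, but each lost its call when single arrays were left out. Without PD0332991 replicate 1, 2 or 3 or vehicle replicate 1 or 2, 231735_s_at had adjusted p values of 0.0654 to 0.0910, and without PD0332991 replicate 1 or 3 or any 1 vehicle array, 1558678_s_at had 0.0501 to 0.0758. The remaining 6 called probe sets kept their call in all 6 such fits.

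The 4 MALAT1 probe sets that were not called include the brightest one, which stood for the gene. Probe set 224567_x_at read 15945, 14721 and 15668 on PD0332991 arrays, against 14395, 14305 and 13147 on vehicle arrays. The groups were apart, but the log2 fold change was 0.15 with a 95% interval of -0.01 to 0.31 (limma adjusted p = 0.159 in the fit of 1 probe set a gene). At 226675_s_at the values were 14169, 12695 and 14461 with PD0332991, against 12804, 12954 and 10997 with vehicle, and they overlapped. Probe set 223577_x_at was at 0.09 and 228582_x_at at 0.26. Probe set 228582_x_at passed when only brighter probe sets were tested (adjusted p = 0.043) and with array weights (adjusted p = 0.044).

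The brightest MALAT1 probe sets lay at the top of the scale. Ranked by mean intensity, 224567_x_at was number 16, 1558678_s_at number 23 and 226675_s_at number 47 of 54613, and the 16362 that 1558678_s_at reached on PD0332991 replicate 1 was the highest of all 328050 values. Of the 84 probe sets with a mean of at least 12000, 1 was called higher, 1.19%, and 2 were called lower, 2.38%, and the 1 called higher was 1558678_s_at. The 3 MALAT1 probe sets with a mean of at least 12000 had a median log2 fold change of 0.17, and the 9 below it a median of 0.55. The part that signal near the top of the scale plays in the fold change was not tested.

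**Figure D2:**
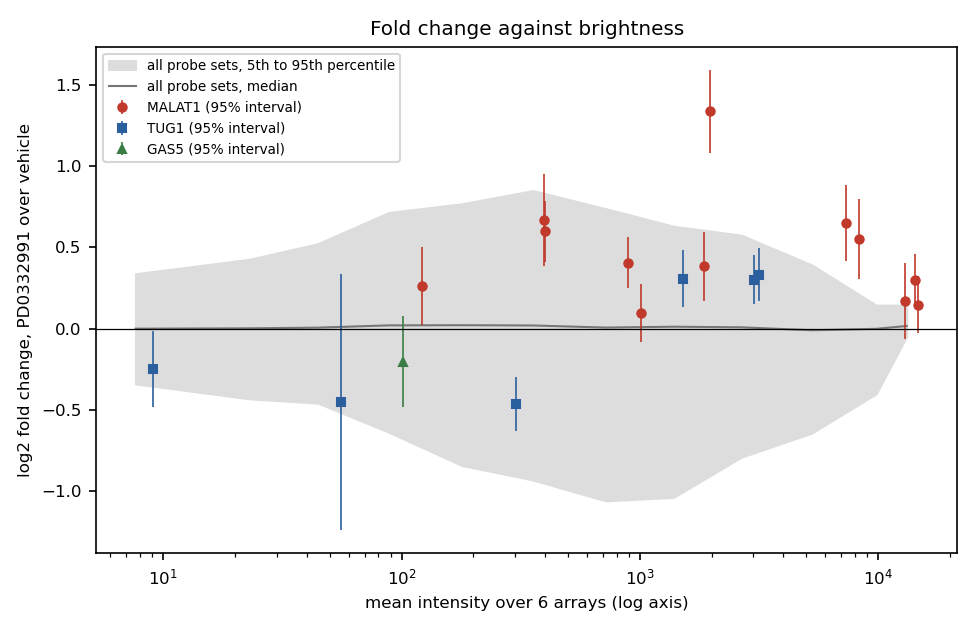
Log2 fold change (PD0332991 over vehicle, bars are 95% intervals from limma) against mean intensity over the 6 arrays (log axis) for MALAT1, TUG1 and GAS5 probe sets, with the median and the 5th to 95th percentile of all probe sets in 12 bins of brightness in grey. The grey band narrows towards the top of the scale, where 3 MALAT1 probe sets lie between 0.15 and 0.30.

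RefSeq gives MALAT1 more than 1 start, and windows of 300 bases, 250 before a start and 50 after it, are shown. MALAT1 was chosen for the largest differences on single probe sets among the 3 measured members, which were not on its brightest one. Capitals mark matches, on either strand, to any of 5 motifs, whose letters may overlap. The E2F site was searched as TTTCGCGC and, in its second form, as TTTGGCGC. The CHR element of cell cycle genes was searched as TTTGAA and, in its second form, as TTCGAA. The E-box was the palindrome CACGTG, and the CCAAT box was searched by the letters of its name. The TATA box was searched as TATAAA and, in its longer form, as TATATAA. The windows, 5′ to 3′, lie on the plus strand of GRCh38.p14 at chr11:65497488-65497787 for the first start and chr11:65498795-65499094 for the second.
MALAT1, first start: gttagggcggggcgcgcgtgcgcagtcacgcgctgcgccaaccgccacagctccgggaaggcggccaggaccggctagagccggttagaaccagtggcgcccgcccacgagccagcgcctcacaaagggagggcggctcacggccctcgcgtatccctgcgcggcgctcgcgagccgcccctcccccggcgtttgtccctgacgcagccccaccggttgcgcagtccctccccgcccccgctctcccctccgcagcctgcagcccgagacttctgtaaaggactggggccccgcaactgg
MALAT1, second start: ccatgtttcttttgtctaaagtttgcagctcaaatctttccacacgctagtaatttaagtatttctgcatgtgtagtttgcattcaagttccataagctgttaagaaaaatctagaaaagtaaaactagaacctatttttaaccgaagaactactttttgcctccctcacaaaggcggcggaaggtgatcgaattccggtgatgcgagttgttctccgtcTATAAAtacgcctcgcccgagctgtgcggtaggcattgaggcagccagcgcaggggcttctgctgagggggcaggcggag
The first window held none of the 5 motifs and was 73.7% G or C, and the second held 1 TATA box beginning 30 bases before the start and was 46.0% G or C. A TATA box by these letters was found in 12.6% of the 35116 promoter windows of the table, an E2F site in 1.15%, a CHR element in 16.35%, an E-box in 7.26% and a CCAAT box in 34.6%.

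TUG1 rose with PD0332991 on its 3 brightest probe sets and was lower on a dimmer one. The brightest, 222244_s_at, which stood for the gene, read 3733, 3452 and 3413 on PD0332991 arrays, against 2721, 2856 and 2826 on vehicle arrays. No PD0332991 array overlapped a vehicle array. The means were 3533 ± 175 with PD0332991 and 2801 ± 71.1 with vehicle (SD, n = 3 each), a 1.26-fold difference in the fit, or 0.33 on the log2 scale (SE 0.06, limma adjusted p = 0.0089 over 19775 genes). In that fit of 1 probe set a gene, 15.6% of genes were called higher, 13.6% lower and 29.3% in either direction, and of the 3 measured members TUG1 was called higher, MALAT1 and GAS5 were not called and none was lower. With 1 array left out the adjusted p for TUG1 lay between 0.0221 and 0.0396.

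The probe sets 212725_s_at and 212337_at moved with it. For 212725_s_at the arrays gave 3426, 3299 and 3229 with PD0332991, against 2699, 2692 and 2671 with vehicle, or 0.30 on the log2 scale (limma adjusted p = 0.017 over all probe sets). For 212337_at they gave 1693, 1699 and 1639 with PD0332991, against 1261, 1380 and 1425 with vehicle, or 0.31 (limma adjusted p = 0.029). Both were apart between the groups. Over all probe sets, 222244_s_at and 212725_s_at were not called without vehicle replicate 1 (adjusted p = 0.0687 and 0.0589) or vehicle replicate 2 (0.0566 and 0.0631), and 212337_at kept its call only without vehicle replicate 3, with 0.0725 to 0.0882 in the other 5 fits.

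The dimmer TUG1 probe set 228397_at fell. It read 262, 251 and 244 on PD0332991 arrays, against 342, 371 and 349 on vehicle arrays, with no overlap. The difference was -0.46 on the log2 scale (SE 0.07, limma adjusted p = 0.0049), and it kept its call with any 1 array left out. Probe sets 229301_at, at 62.7, 18.2 and 59.1 with PD0332991 against 60.8, 58.5 and 74.5 with vehicle, and 230635_at, at 4.04 to 8.61 with PD0332991 against 10.9 to 11.5 with vehicle, were dim and not called. The groups were apart on 230635_at, whose values lie below the pseudocount of 16. On 229301_at a single array, PD0332991 replicate 2, lay apart from the other 5. Taking the mean of the 6 TUG1 probe sets in place of the brightest turned the direction to -0.04 (adjusted p = 0.781), while the same mean put MALAT1 at 0.46 (adjusted p = 0.0025). Which TUG1 transcripts each probe set matches was not looked up here, and the difference between the probe sets was not tested.

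**Figure D3:**
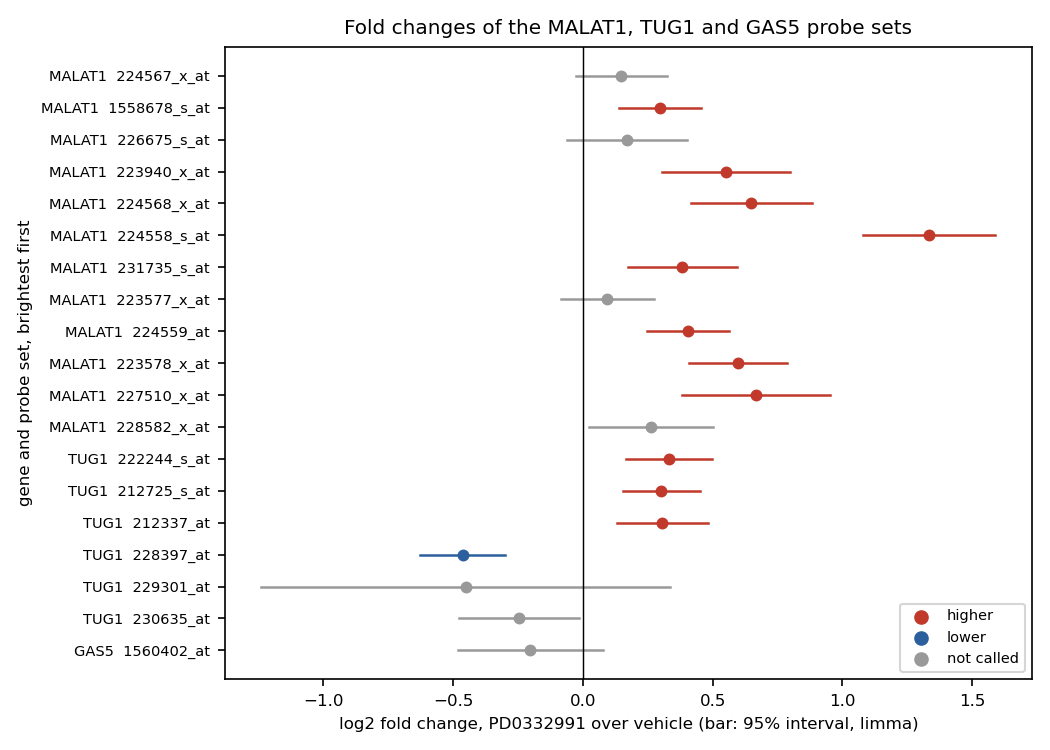
Log2 fold change, PD0332991 over vehicle, of the 19 probe sets annotated to MALAT1, TUG1 or GAS5 alone, brightest first within a gene, with 95% intervals from limma and colours for higher, lower and not called. Of the 19, 11 were higher and 1, the TUG1 probe set 228397_at at -0.46, was lower.

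The TUG1 start is shown for comparison with the MALAT1 windows, with the same 5 motifs in capitals. It lies on the plus strand of GRCh38.p14 at chr22:30969015-30969314.
TUG1: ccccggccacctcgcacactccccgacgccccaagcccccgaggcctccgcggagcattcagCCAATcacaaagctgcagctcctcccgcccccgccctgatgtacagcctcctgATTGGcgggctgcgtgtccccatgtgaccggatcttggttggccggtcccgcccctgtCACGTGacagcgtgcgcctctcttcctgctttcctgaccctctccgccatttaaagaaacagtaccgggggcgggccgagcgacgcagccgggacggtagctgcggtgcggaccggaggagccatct
It held 2 CCAAT boxes, beginning 188 and 135 bases before the start, and 1 E-box beginning 77 bases before it, and neither an E2F site nor a CHR element by these letters.

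GAS5 had 1 probe set to itself, 1560402_at, and that probe set was dim. It read 85.8, 96.3 and 97.6 on PD0332991 arrays, against 104, 96.8 and 131 on vehicle arrays, and the groups overlapped. The log2 fold change was -0.20 with a 95% interval of -0.48 to 0.07 (limma adjusted p = 0.251 over genes), and it did not pass under any alternative tried. Over the 19 probe sets of the 3 genes, 11 were higher, 1 was lower and 7 were not called, read against the 10.7% and 10.2% of all probe sets, and 18 of the 19 belong to MALAT1 or TUG1.

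Another 22 probe sets list GAS5, NEAT1 or an SNHG gene beside 1 to 8 further symbols. On all 22, every further symbol was a snoRNA or microRNA gene that lies inside the span of the noncoding RNA in RefSeq, so each probe set points to 1 locus, but the annotation does not say which of its transcripts is measured. Of the 22, 6 were called higher, 2 lower and 14 not called, with a median log2 fold change of 0.14, against 10.7% higher and 10.2% lower among all probe sets. The share lower is thus near that of all probe sets, but these shares changed with brightness. The called probe sets had means between 940 and 4053. At means from 512 to 1024, 23.5% of all probe sets were called higher and 24.8% lower. From 2048 to 4096 the shares were 18.9% and 21.4%, and below 16 they were 1.5% and 1.37%. The count higher was 2 without vehicle replicate 2 and 3 without PD0332991 replicate 1 or 3, and the count lower was 1 without PD0332991 replicate 3 or vehicle replicate 1. On 9 the PD0332991 arrays all lay above the vehicle arrays and on 2 all lay below. For all probe sets the shares apart in these ways were not counted, so these counts have no background.

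**Figure D4:**
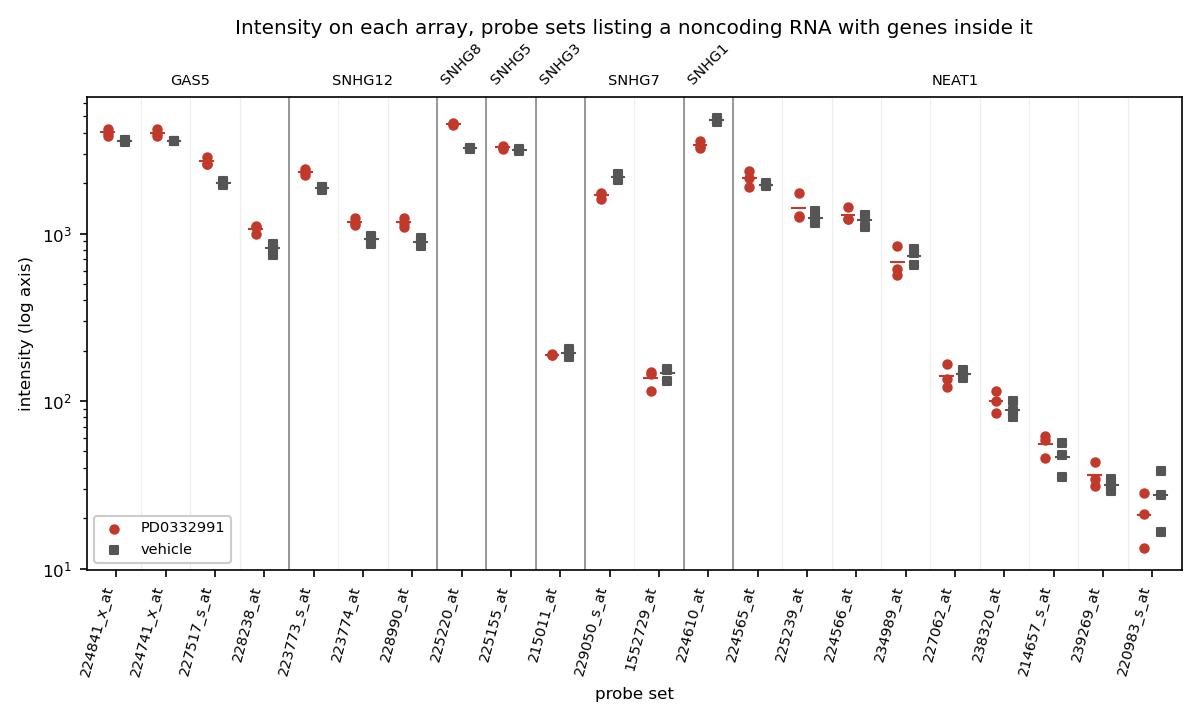
Intensity (log axis) on each of the 6 arrays for the 22 probe sets that list a noncoding RNA together with genes inside it, grouped by that RNA, with PD0332991 arrays as circles, vehicle arrays as squares and group means as short lines. PD0332991 arrays lie above on all probe sets of the GAS5, SNHG12, SNHG8 and SNHG5 loci, below on SNHG1 and on 229050_s_at of SNHG7, and among vehicle arrays on the other 11, including all 9 that list NEAT1. Shares of all probe sets apart in these ways were not counted.

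At the SNHG8 locus, 225220_at, listed with the H/ACA snoRNA gene SNORA24, read 4594, 4463 and 4486 on PD0332991 arrays, against 3235, 3184 and 3256 on vehicle arrays. The gap between the groups was wider than the spread within either, and it came to 0.48 on the log2 scale (SE 0.06, limma adjusted p = 0.0024). The 3 probe sets that list SNHG12 with 3 H/ACA snoRNA genes were all higher. The brightest of them, 223773_s_at, had 2426, 2248 and 2316 with PD0332991, against 1903, 1822 and 1888 with vehicle, or 0.31 on the log2 scale (limma adjusted p = 0.018). The others, 223774_at and 228990_at, were at 0.33 and 0.38. These 3 probe sets had adjusted p values above 0.05 when some single arrays were left out: 223773_s_at without PD0332991 replicate 3 or vehicle replicate 1 or 2 (0.0562 to 0.0731), 223774_at in all 6 fits but that without PD0332991 replicate 2 (0.0570 to 0.0792), and 228990_at without PD0332991 replicate 1 or 3 or vehicle replicate 2 (0.0510 to 0.0660).

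Of the 4 probe sets that list GAS5 with 8 C/D box snoRNA genes, 2 were higher. Probe set 227517_s_at read 2875, 2600 and 2604 with PD0332991, against 2049, 2026 and 1954 with vehicle, or 0.42 (SE 0.07, limma adjusted p = 0.0086). Probe set 228238_at read 1093, 1102 and 998 with PD0332991, against 864, 838 and 743 with vehicle, or 0.38 (limma adjusted p = 0.025), and was not called without PD0332991 replicate 1 or 2 or vehicle replicate 2 (adjusted p = 0.0681 to 0.0777). The brighter 224841_x_at and 224741_x_at were each at 0.16 and did not pass (limma adjusted p = 0.156 and 0.149), although neither overlapped between groups and both passed with an intensity trend in eBayes (0.0229 and 0.0209). All 4 were above vehicle on every PD0332991 array, whereas the dim probe set annotated to GAS5 alone overlapped.

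The SNHG1 and SNHG7 loci held the 2 probe sets that fell. Probe set 224610_at, listed for SNHG1 with 8 C/D box snoRNA genes, read 3549, 3321 and 3230 on PD0332991 arrays, against 4858, 4736 and 4620 on vehicle arrays. The difference was -0.49 on the log2 scale (SE 0.07, limma adjusted p = 0.0040), and the call held with any 1 array left out, as it did for 225220_at and 227517_s_at. Probe set 229050_s_at, listed for SNHG7 with 2 H/ACA snoRNA genes, read 1740, 1724 and 1614 with PD0332991, against 2131, 2074 and 2273 with vehicle, or -0.35 (limma adjusted p = 0.017). It was not called without PD0332991 replicate 3 (adjusted p = 0.0615) or vehicle replicate 1 (0.0571), and the dimmer 1552729_at of the same locus was at -0.10 and overlapped.

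The probe sets at the other loci did not pass. At SNHG5, 225155_at read 3329, 3255 and 3198 with PD0332991, against 3140, 3095 and 3182 with vehicle, or 0.05 with a 95% interval of -0.09 to 0.20, and the groups were narrowly apart. The values of 215011_at, listed for SNHG3 with the H/ACA snoRNA gene SNORA73A, were 190, 188 and 189 with PD0332991, against 203, 192 and 182 with vehicle, and overlapped. Of the 9 probe sets that list NEAT1 with the microRNA gene MIR612, none was called in limma, and none had an unadjusted p under 0.05. Their log2 fold changes ran from -0.23 to 0.20, and PD0332991 and vehicle arrays overlapped on each. The brightest, 224565_at, read 2365, 1891 and 2149 with PD0332991, against 1919, 1934 and 1990 with vehicle, or 0.13 with a 95% interval of -0.10 to 0.35. The difference between these and the MALAT1 probe sets was not tested.

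Starts of the 4 SNHG loci with a called probe set are shown as windows of 50 bases, 25 on each side of the RefSeq start in GRCh38.p14, because TOP tracts lie at the first bases of an RNA. Capitals mark the longest run of at least 5 C or T bases that opens with C. The windows lie at chr11:62855861-62855910 on the minus strand for SNHG1, chr9:136728160-136728209 on the minus strand for SNHG7, chr4:118278737-118278786 on the plus strand for SNHG8 and chr1:28581849-28581898 on the minus strand for SNHG12.
SNHG1: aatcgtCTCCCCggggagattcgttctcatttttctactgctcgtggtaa
SNHG7: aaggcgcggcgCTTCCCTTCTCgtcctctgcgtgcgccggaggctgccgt
SNHG8: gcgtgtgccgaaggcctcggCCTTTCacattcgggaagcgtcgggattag
SNHG12: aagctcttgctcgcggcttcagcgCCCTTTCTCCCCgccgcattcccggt
The run was 12 bases long for SNHG12, 11 for SNHG7, 6 for SNHG1 and 6 for SNHG8. Its relation to the fold changes was not tested. Counted from the RefSeq start, the run began at base -1 for SNHG12 and -5 for SNHG8, and both included the start. For SNHG7 it began at -14 and for SNHG1 at -19, and both ended before the start. In windows of 50 bases not shown, GAS5 had a run of 5 beginning at -25. The first MALAT1 start had a run of 11 beginning at -10. The GAS5 locus also had called probe sets. A run of at least 10 bases was found in 8.24% of all 35116 windows, and of at least 5 in 54.4%. RefSeq starts can lie some bases away from the start used in these cells, which was not measured here.

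The SNHG1 promoter window is shown because it was the 1 of the 10 windows of these genes with an E2F site by the letters above. It lies on the minus strand of GRCh38.p14 at chr11:62855836-62856135.
SNHG1: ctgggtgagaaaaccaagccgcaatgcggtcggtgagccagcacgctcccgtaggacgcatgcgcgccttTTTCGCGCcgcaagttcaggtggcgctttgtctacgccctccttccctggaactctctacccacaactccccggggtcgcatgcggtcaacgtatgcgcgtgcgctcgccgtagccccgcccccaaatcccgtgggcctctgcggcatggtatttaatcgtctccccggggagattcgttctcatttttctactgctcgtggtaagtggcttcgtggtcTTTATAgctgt
The E2F match begins 180 bases before the start, and the match to the TATA box letters lies after the start. A match to these letters is a description of the window and not a bound site.

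The genes that flank the members were compared in the same way, taking the nearest measured gene on either side. Next to MALAT1, the FERM domain gene FRMD8 averaged 1053 ± 60.3 with PD0332991 and 836 ± 52.9 with vehicle (SD, n = 3 each), or 0.33 on the log2 scale (limma adjusted p = 0.020). On the other side LTBP3, which encodes a binding protein of latent TGF-beta, was at 0.36 (limma adjusted p = 0.031). Both calls were lost with single arrays left out: FRMD8 without PD0332991 replicate 2 or 3 or vehicle replicate 1 or 2 (adjusted p = 0.0645 to 0.0719), and LTBP3 in all 6 fits but that without PD0332991 replicate 3 (0.0554 to 0.101). The mean of its probe sets put FRMD8 at -0.13 (adjusted p = 0.238), and LTBP3 was at 0.08 without _x_at and _s_at probe sets (adjusted p = 0.495). NEAT1, which lies between FRMD8 and MALAT1, has no probe set to itself and was not taken as a neighbour. None of the probe sets that list it was called. Next to TUG1, MORC2, a chromatin ATPase, was at 0.14 and did not pass (limma adjusted p = 0.143), nor did SMTN at 0.30 (limma adjusted p = 0.349).

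Around GAS5, the zinc finger gene ZBTB37 rose, with 391 ± 21.6 with PD0332991 and 281 ± 15.4 with vehicle (SD, n = 3 each), or 0.46 (limma adjusted p = 0.0044), and the antisense gene GAS5-AS1 was at 10.1 to 15.7 with PD0332991 against 9.82 to 26.4 with vehicle and not called. RCC1, the exchange factor for the GTPase RAN, overlaps SNHG3 in RefSeq and fell by 1.14 on the log2 scale (limma adjusted p = 6.7e-04), and PHACTR4 on its other side fell by 0.40. The nearest genes of SNHG5, SNHG7 and SNHG8 were not called, among them DIPK1B, which overlaps SNHG7, at -0.35 (limma adjusted p = 0.074). At SNHG1, the amino acid transporter subunit gene SLC3A2 was at -0.27 (limma adjusted p = 0.048), and it missed the threshold with any 1 array left out (0.0501 to 0.129). WDR74, on its other side, was at -0.13 and overlapped between groups (limma adjusted p = 0.263). The selenocysteine factor gene TRNAU1AP, which overlaps SNHG12, was at -0.33 on the probe set used (limma adjusted p = 0.041) and at 0.30 without _x_at and _s_at probe sets (adjusted p = 0.032). It lost its call with any 1 array left out (0.0511 to 0.109). RAB42, on the other side of SNHG12, was at -0.15 and overlapped (limma adjusted p = 0.538).

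Genes that work with these RNAs were counted from 9 lists, again read against the 15.6% higher and 13.6% lower of all genes and their median of 0.01. Among 10 other measured noncoding snoRNA hosts, 1 rose and 3 fell, with a median of -0.05. The number that fell was 0 without PD0332991 replicate 3 or vehicle replicate 2 and 1 without PD0332991 replicate 2 or vehicle replicate 1, and the number that rose was 2 without vehicle replicate 3. DANCR was at 0.44 (1683 ± 73.1 with PD0332991 and 1233 ± 40.2 with vehicle, SD, n = 3 each), while SNHG22 was at -0.37 and SNHG4 at -0.29. SNHG22 lost its call without PD0332991 replicate 2 or 3 or vehicle replicate 1 or 2 (adjusted p = 0.0568 to 0.0742), and SNHG4 without PD0332991 replicate 3 (0.0562) or vehicle replicate 2 (0.0612). Of 13 protein-coding snoRNA hosts, 1 rose and 2 fell with a median of 0.03: TNPO2, a nuclear import receptor gene, was at 0.35, and RCC1 and PRRC2A fell by 1.14 and 0.46.

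Of 16 snoRNP proteins and assembly factors, 5 fell and 1 rose, with a median of -0.16. SHQ1, which assembles H/ACA particles, fell by 0.64, PIH1D1, a subunit of the R2TP assembly complex, fell by 0.37, and ZNHIT6, a C/D box assembly factor, rose by 0.42. The lower members numbered 2 without PD0332991 replicate 2 or vehicle replicate 1, 3 without PD0332991 replicate 3 or vehicle replicate 2, and 9 with an intensity trend in eBayes. Of 51 TOP translation genes, mostly ribosomal proteins, none was called in limma, with 1 higher and 1 lower at an unadjusted p under 0.05 and fold changes between -0.12 and 0.15 on the log2 scale. Other settings called up to 5 higher and 3 lower, with the mean of probe sets, and 4 higher and 2 lower without _x_at and _s_at probe sets. These genes averaged 13.2 to 13.3 on the log2 scale on the arrays of both groups, near the top of the scale described for MALAT1.

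In the list on control of TOP translation, 2 of 12 rose and 3 fell, with a median of 0.10. TSC1, a brake on the kinase mTOR, rose by 0.57 and MTOR itself was at 0.45 (0.16 when its probe sets were averaged, adjusted p = 0.400), while the translation repressor gene EIF4EBP1 fell by 0.90 and RHEB, the GTPase that activates mTOR, fell by 0.35. Among 18 nonsense-mediated decay factors 4 fell and 1 rose, with a median of -0.04. The number that fell was 2 with any 1 array left out except vehicle replicate 3, without which it was 3. The exon junction genes MAGOHB and EIF4A3 fell by 1.33 and 0.36, and the decapping factor gene PNRC2 was at 0.20 (limma adjusted p = 0.038), a call that was lost with any 1 array left out (0.0700 to 0.102).

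Of 19 paraspeckle protein genes, the partners of NEAT1, 5 fell and 1 rose, with a median of -0.11. NUDT21, a subunit of the cleavage factor for 3′ ends, averaged 2414 ± 51.5 with PD0332991 and 4340 ± 141 with vehicle (SD, n = 3 each), or -0.84, and DAZAP1 was at -0.64, against FAM98A at 0.35. Of 29 nuclear speckle protein genes, 5 rose and 8 fell, with a median of 0.02. The number that rose was 2 without vehicle replicate 1 and 3 without vehicle replicate 2. The splicing kinase genes CLK1 and CLK4 rose by 0.68 and 0.57, whereas the SR protein genes SRSF10 and SRSF7 fell by 0.56 and 0.46, the last at 0.01 without _x_at and _s_at probe sets (adjusted p = 0.936). Of 18 other long noncoding RNAs, 5 rose and 2 fell, with a median of 0.08. DLEU2, host of a microRNA cluster that restrains the cell cycle, fell by 2.51 on the log2 scale, with 222 ± 8.58 with PD0332991 and 1344 ± 109 with vehicle (SD, n = 3 each), and CRNDE fell by 0.64, while FTX and JPX rose by 0.86 and 0.52.

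**Figure D5:**
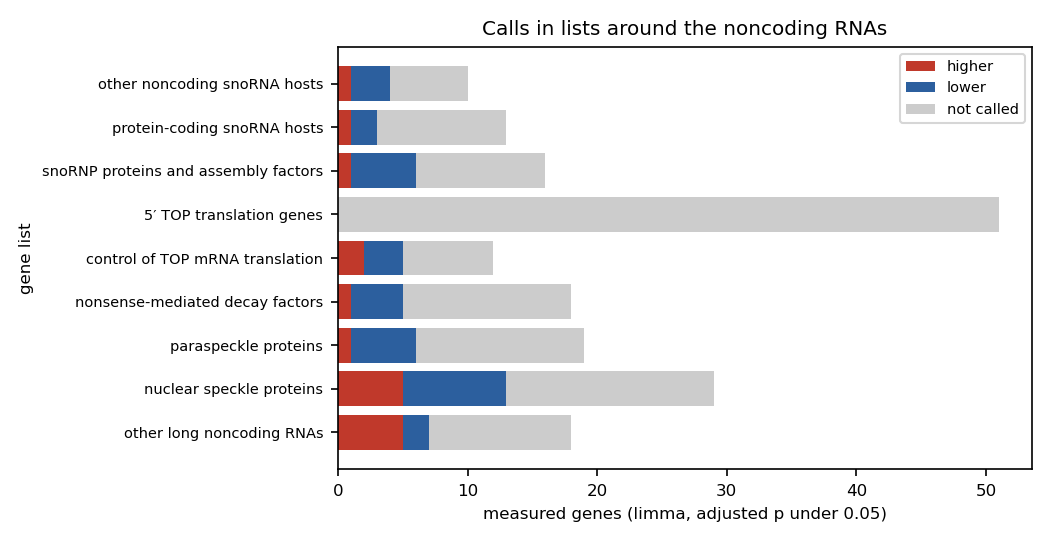
Number of measured genes called higher, called lower and not called (limma, adjusted p under 0.05) in 9 gene lists around the noncoding RNAs. The 51 TOP translation genes have no call, and the paraspeckle and snoRNP lists each have 5 lower and 1 higher.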

How the data were processed

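RNA of 6 KOPTK1 cultures, 3 with PD0332991 and 3 with vehicle, was measured on one-colour arrays. Each deposited intensity is 1 value a probe set, which the authors had summarised and scaled, by a method not given in the sources used here. They were not normalized again. The number of arrays limits the precision.

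Control probe sets (62) were not tested. Of the other 54613, 41091 had 1 gene symbol, 1801 several and 11721 none. Gene IDs were looked up in the RefSeq gene table of GRCh38.p14 for current symbols (54 single-symbol probe sets had no match and kept theirs). Genes were represented by their brightest single-symbol probe set. Groups were compared on log2(intensity + 16), whose pseudocount understates changes of dim probe sets, with limma 3.58.1 in R 4.3.3 (lmFit, eBayes, two-sided) and Benjamini-Hochberg adjustment over all 19775 genes or all 54613 probe sets. Simulated data were used to check the code. Promoter windows came from a RefSeq table of GRCh38.p14 with rows for 9 of the 10 genes, and the motifs were chosen with results known. Figures used matplotlib 3.10.9.

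The members and gene lists were chosen with earlier results of these data known. Named genes were the members, their nearest measured neighbours and up to 2 genes with the largest change in each direction in each list. Alternatives were a block for the replicate number, leaving out each array in turn, 3 other scalings, brighter features only, other rules for probe sets, 3 other variance models, pseudocounts of 1 and 64 and a threshold of 0.01. Deviations from the group means correlated at r = 0.003, 0.08 and 0.08 across genes for the same-numbered arrays. For arrays of unlike number r ran from -0.08 to 0.02. With 3 arrays a group these small values cannot decide whether the numbers pair the arrays.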

Additional observations from a re-analysis of the deposited data

How the results depend on the processing

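The count of member probe sets called higher, 11 in the analysis reported, was 6 with the replicate number as a block, 2 when probe sets with _x_at or _s_at endings were dropped, which leaves fewer to count, and 4 at an adjusted p threshold of 0.01. It ran from 6 to 10 with 1 array left out, with 6 without vehicle replicate 1 or 2. Under the replicate block the joint probe sets counted 4 higher and 1 lower. Vehicle replicates 2 and 3 each correlated best with the PD0332991 array of their own number (r = 0.08 each). Vehicle replicate 1 correlated best with PD0332991 replicate 2 (r = 0.02). Whether the replicate numbers pair the arrays is not given by the labels. The count of member genes higher, 1, became 2 with MALAT1 added, both without those endings (0.41) and with a trend in eBayes (0.15, adjusted p = 0.046); averaging probe sets gave 1, MALAT1 in place of TUG1. The count of all genes called, 5786, was 3523 at the threshold of 0.01 and 4257 to 5689 with 1 array left out, and all probe sets called, 11446, were 6856 without those endings, 6074 at 0.01 and 7520 and 7440 without vehicle replicate 1 and 2. Directions turned with the mean of probe sets for TUG1 (-0.037), FRMD8 (-0.13), SMTN (-0.37) and PRSS12 (0.0083), with array weights for PRSS12 (0.0614), and without those endings for SRSF7 (0.0127) and TRNAU1AP (0.30). With 1 array left out, values crossed 0 for LCN10 (-0.0722 to 0.24), PRSS12 (-0.16 to 0.0629), NDST3 (-0.0705 to 0.0053), GAS5-AS1 (-0.25 to 0.11), 227062_at (-0.15 to 0.0527), 1552729_at (-0.17 to 0.0026) and 215011_at (-0.0611 to 0.0122), none of them called. The causes were not tested. Of 1592 single-value comparisons with an alternative, 1445 kept direction and side of the threshold, 114 lost a call, 17 gained one and 16 changed sign. The data have 3 arrays a group and no detection calls, and the brightest MALAT1 probe sets lie near the highest values of the scale.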
